A study of Mus musculus with 6 samples.

Results

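The genes described here are 10 of cholesterol handling in the macrophage. They carry cholesterol out, release it from lysosomes, esterify it, sense its oxidised forms, or mark lipoprotein receptors for degradation. They were chosen by symbol, with earlier results of these data known, and are *Nr1h2*, *Nr1h3*, *Abca1*, *Abcg1*, *Apoe*, *Scarb1*, *Mylip*, *Npc1*, *Npc2* and *Soat1*. Each symbol matched 1 row of the 49315 genes in the deposited count table. RNA was sequenced from RAW264.7 cells, a mouse macrophage-like line labelled as wild type. The cells had received SKI-II, an inhibitor of sphingosine kinases, at 4 μg/mL, or the vehicle DMSO alone, and both were harvested at 24 h. Each group held 3 libraries of poly(A)-selected RNA, and both groups shared the line and the genotype. The study's methods refer to the PCR assay for treatment and extraction, and give 3 biological replicates per condition for that assay. The labels do not say whether the libraries sequenced came from separate cultures, and p-values then measure the spread between these libraries, which may be technical.

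Liver X receptors (LXRs) are nuclear receptors that bind oxysterols, pair with retinoid X receptors and switch on genes for cholesterol efflux and fatty acid synthesis. In macrophages their best known targets are the transporters ABCA1 and ABCG1, which load cholesterol onto apolipoprotein A-I and onto high-density lipoprotein (HDL). Cholesterol that enters with lipoproteins leaves the lysosome through the proteins NPC2 and NPC1, and what is not exported is esterified by SOAT1 and stored in lipid droplets.

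The libraries held between 12495957 and 20050677 counts, of which the 10 genes took between 0.125% and 0.173%. Libraries of the same group differed by far more than counting error (chi-square divided by its degrees of freedom between 15.4 and 58.1). All 10 macrophage markers examined, such as *Cd68* and *Csf1r*, were detected. Their summed normalized counts lay between 143000 and 208000 with DMSO and between 92400 and 130000 with SKI-II. *Lyz2* alone made the sum lower, at 88300 to 151000 with DMSO and 23600 to 61300 with SKI-II, while the other 9 markers summed to 52000 to 57200 with DMSO and 63400 to 68800 with SKI-II. The part of these differences in the results below was not tested. Of 18 markers of fibroblasts, endothelial, epithelial, T and B cells, 6 were at 0 in every library and no other exceeded 18 counts in a library. In RNA from a whole culture, fewer cells of a type and less RNA per cell cannot be told apart.

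Under SKI-II, 2 of the 10 genes rose and 4 fell. The receptor gene *Nr1h3* and the lysosomal gene *Npc1* were higher, while *Scarb1*, *Mylip*, *Abcg1* and *Npc2* were lower. *Nr1h2*, *Abca1*, *Apoe* and *Soat1* were not called. Calls were made at an adjusted p below 0.05 by the quasi-likelihood test of edgeR, with Benjamini-Hochberg adjustment over all 12274 genes that passed the filter on low counts, among them all 10 described here. At that threshold 18.4% of all tested genes were higher and 19.7% lower, 38% in either direction, so that the number of rises among the 10 was near the background. With the study's additional condition of a log2 fold change above 1 or below -1, 2 of the 10 were called against 15.7% of all tested genes. These were *Nr1h3* among the higher genes, with a background of 8.28%, and *Scarb1* among the lower ones, with a background of 7.44%. The median log2 fold change was -0.41 for the 10 genes and 0.00 for all tested genes.

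**Figure D1:**
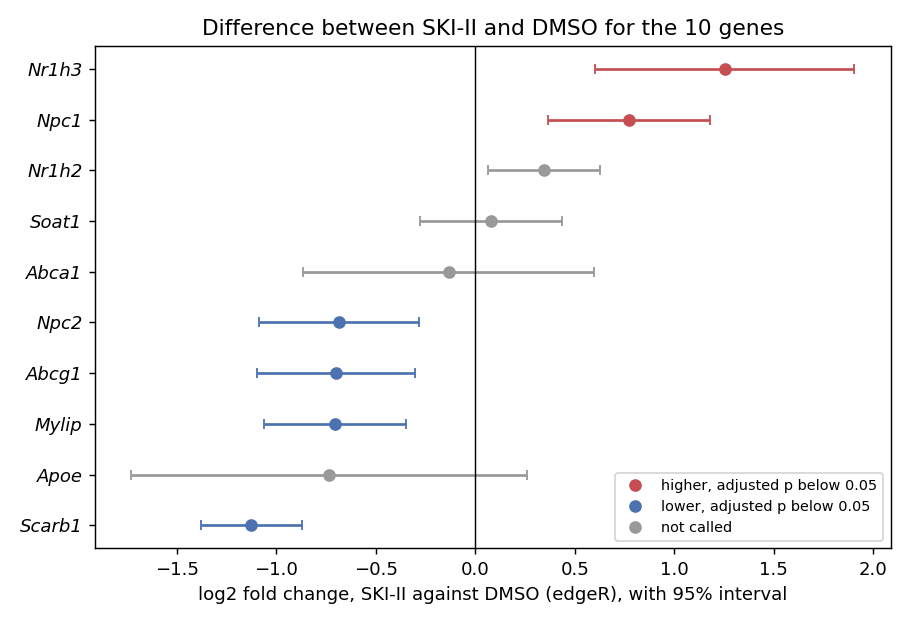
Log2 fold change between SKI-II and DMSO for each of the 10 genes (x axis), ordered by size, with 95% intervals from the fitted model and n = 3 libraries a group. Red points passed an adjusted p below 0.05 as higher, blue points as lower, and grey points did not pass. *Nr1h3* stands at 1.25 and *Scarb1* at -1.12, with the intervals of *Abca1*, *Soat1* and *Apoe* crossing 0.

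Per length of exon, the 10 genes spanned a wide range in the untreated state. Counts scaled to depth and to the length of the merged exons (RPKM) averaged 84.2 ± 19.8 (SD, n = 3) for *Npc2*, the highest, and 0.964 ± 0.346 for *Apoe*, the lowest, in the DMSO libraries. Between them came *Abcg1* at 40.6 RPKM, *Soat1* at 35.6, *Nr1h2* at 22.5, *Scarb1* at 20.6, *Npc1* at 15.9, *Abca1* at 7.61, *Mylip* at 7.14 and *Nr1h3* at 1.36. The ranges of the 3 libraries overlapped for *Abcg1* and *Soat1*, for *Nr1h2* and *Scarb1*, for *Abca1* and *Mylip*, and for *Nr1h3* and *Apoe*, so these neighbours did not differ beyond their spread. When the longest transcript replaced the merged exons, *Scarb1* moved from position 5 to position 2 with 56.7 RPKM, and the order of the genes in the middle therefore rests on the choice of length. In the SKI-II libraries *Npc2* was still the highest at 52.4 RPKM and *Apoe* the lowest at 0.575, with *Soat1* at 37.6 and *Nr1h2* at 28.6. *Npc1*, at 27.2 RPKM, then had a mean above those of *Abcg1*, at 25.0, and *Scarb1*, at 9.46, with ranges that overlapped those of *Abcg1* but not those of *Scarb1*. Each neighbour in that order from *Npc2* through *Soat1*, *Nr1h2* and *Npc1* to *Abcg1* overlapped the next.

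The receptors are encoded by *Nr1h2* (LXRβ, on chromosome 7, 44549616 to 44553951 of GRCm38, minus strand) and *Nr1h3* (LXRα, on chromosome 2, 91184061 to 91202834, minus strand). LXRβ is made in most tissues, and LXRα mainly in liver, fat, gut and macrophages. *Nr1h3* had 62.2, 60.6 and 41.6 normalized counts in DMSO replicates 1, 2 and 3, and 154, 150 and 88.8 in the SKI-II replicates, where normalized counts are counts scaled to a common library size. No DMSO library reached the SKI-II libraries. The means were 54.8 ± 11.5 and 131 ± 36.6 (SD, n = 3), a log2 fold change of 1.25 (SE 0.29, 95% interval 0.60 to 1.91, adjusted p = 0.00786 by edgeR's quasi-likelihood test), or 2.39-fold. These values rest on 42 to 64 counts with DMSO and 109 to 157 with SKI-II. In annotation, 1.35% of the exon length of *Nr1h3* is shared with the transcript *Gm13783*, which had at most 8 counts in a library.

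*Nr1h2* had 1139, 1181 and 1311 normalized counts with DMSO and 1716, 1405 and 1492 with SKI-II. Again the groups did not overlap, as for 50.3% of all tested genes. Its log2 fold change was 0.34 (SE 0.13, 95% interval 0.06 to 0.63) and its adjusted p of 0.0548 in the edgeR test missed the threshold. It passed with DESeq2, at an adjusted p of 0.0401, and without DMSO replicate 3, at 0.0476.

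Within a library, the ratio of the receptors does not depend on scaling between libraries. With DMSO the log2 ratio of *Nr1h3* to *Nr1h2* counts was -4.19, -4.27 and -4.96, and with SKI-II it was -3.47, -3.23 and -4.06. The groups were apart, with a mean difference of 0.89 on the log2 scale, or 1.85-fold, toward LXRα. The two-sided exact permutation test gave p = 0.1, the smallest that 3 against 3 libraries allow, and 0.2 after adjustment over the 4 ratios tested.

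A promoter sequence of *Nr1h3* is shown because this gene had the largest rise of the 10. It spans chr2:91195067-91195366 of GRCm38.p6 on the minus strand, 250 bases before to 50 after a RefSeq start, and reads 5′ to 3′ as follows.
*Nr1h3*: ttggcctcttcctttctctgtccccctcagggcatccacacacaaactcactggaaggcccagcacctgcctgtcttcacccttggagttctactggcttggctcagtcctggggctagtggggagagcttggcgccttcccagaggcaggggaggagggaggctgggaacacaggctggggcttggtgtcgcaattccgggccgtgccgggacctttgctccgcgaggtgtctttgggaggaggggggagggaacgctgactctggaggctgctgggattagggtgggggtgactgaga
The promoters were searched on both strands for 5 kinds of element, which were the LXR element, the E-box CACGTG, the antioxidant response element TGACNNNGC, the sterol element and the cAMP element TGACGTCA. The LXR element is a direct repeat of AGGTCA with 4 bases between the copies, and up to 3 mismatches were allowed in it, with up to 1 in the sterol and cAMP elements. Matches found did not overlap each other. None of these letters was found in the window above, nor in another *Nr1h3* window or those of *Nr1h2*, *Mylip*, *Apoe* and *Npc2*. Promoters of 7 of the 10 genes were in the table used here, and those of *Abcg1*, *Scarb1* and *Npc1* were not.

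*Abca1* (chromosome 4, 53030787 to 53159895, minus strand) encodes the transporter that passes cholesterol to lipid-poor apolipoprotein A-I. It had 2020.3, 873 and 900.1 normalized counts in DMSO replicates 1, 2 and 3, and 1579, 868 and 1018 in the SKI-II replicates. DMSO replicate 1 stood above every other library, and the groups overlapped. The log2 fold change was -0.13 (SE 0.33), with an adjusted p of 0.779 by edgeR, and its 95% interval of -0.86 to 0.60 leaves room for a change in either direction. Without DMSO replicate 1 the value turned to 0.36 (adjusted p = 0.233). That library was also the highest of the 6 for 4 of the 13 other LXR targets tested, *Fasn*, *Scd2*, *Lpl* and *Cd5l*. *Lpl* had 34676 normalized counts there, against 17049 to 20120 in the other DMSO libraries, and *Cd5l* had 668, against 241 and 310.

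The promoter of *Abca1* is shown because it held matches to elements searched. It spans chr4:53159846-53160145 of GRCm38.p6 on the minus strand and was taken from RefSeq. Capitals mark the E-box, whose first base lies 147 bases before the start, and a match to the LXR element on the opposite strand with 3 mismatches, whose first base lies 67 before it.
*Abca1*: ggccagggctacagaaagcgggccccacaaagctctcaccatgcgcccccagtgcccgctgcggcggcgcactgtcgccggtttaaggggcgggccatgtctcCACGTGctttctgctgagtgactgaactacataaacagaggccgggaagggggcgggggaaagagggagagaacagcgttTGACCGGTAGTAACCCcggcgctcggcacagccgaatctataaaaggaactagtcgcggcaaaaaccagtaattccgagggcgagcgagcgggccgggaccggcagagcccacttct
Among 32851 promoter windows of this length, 7.15% held an E-box and 21.9% an LXR element with up to 3 mismatches, while 3.02% held one with up to 2. The matches describe the letters of the window and do not show binding.

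*Abcg1* (chromosome 17, 31057675 to 31117988, plus strand) encodes the transporter that passes cholesterol to HDL. With DMSO it had 4405, 3935 and 5916 normalized counts, and with SKI-II 3333, 2409 and 3028. Every SKI-II library lay below every DMSO library. From a DMSO mean of 4752 ± 1036 to a SKI-II mean of 2923 ± 471 (SD, n = 3) it fell by 0.70 on the log2 scale (SE 0.18, 95% interval -1.10 to -0.30, adjusted p = 0.0119 by edgeR), or 1.63-fold. Among fits with a library left out, the call was lost only without SKI-II replicate 2, the lowest library (-0.58, adjusted p = 0.0563). The value was smallest without DMSO replicate 3, the highest library (-0.52, adjusted p = 0.0296).

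Set against each other within a library, the efflux transporters did not separate the groups. The log2 ratio of *Abca1* to *Abcg1* counts was -1.12, -2.17 and -2.72 with DMSO and -1.08, -1.47 and -1.57 with SKI-II. The libraries overlapped, and the two-sided exact permutation p was 0.3 (0.4 adjusted over the 4 ratios).

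*Apoe* (chromosome 7, 19696109 to 19699188, minus strand) encodes apolipoprotein E, an acceptor of cellular cholesterol that most macrophages secrete. Here it was barely detected, with 44, 29 and 20 counts under DMSO and 11, 32 and 20 under SKI-II. The groups overlapped, and the log2 fold change of -0.73 (95% interval -1.73 to 0.26, adjusted p = 0.222 by edgeR) was not resolved at this depth. *Apoc2* and *Apoc4*, genes of the same apolipoprotein cluster, were at 0 in all 6 libraries, where a count of 0 allows up to 3 counts in a library, and *Apoc1* had at most 2 counts.

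*Scarb1* (chromosome 5, 125277087 to 125341094, minus strand) encodes SR-BI, the HDL receptor that moves cholesterol in both directions across the cell membrane. Its normalized counts were 2620, 2722 and 3100.3 with DMSO and 1304, 1251 and 1317 with SKI-II. The SKI-II libraries lay close together, far below all DMSO libraries. The mean fell from 2814 ± 253 to 1290 ± 34.7 (SD, n = 3), with a log2 fold change of -1.12 (SE 0.11, 95% interval -1.38 to -0.87, adjusted p = 8.3e-05 by edgeR), or 2.18-fold lower. It had the smallest adjusted p of the 10 genes.

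*Mylip* (chromosome 13, 45389742 to 45412022, plus strand) encodes IDOL, an LXR-induced ubiquitin ligase that marks lipoprotein receptors for degradation. Its normalized counts were 391, 322 and 397 with DMSO and 249.5, 219 and 214 with SKI-II. All SKI-II libraries were below all DMSO libraries, with a log2 fold change of -0.70 (SE 0.16, 95% interval -1.06 to -0.35, adjusted p = 0.00699 by edgeR).

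**Figure D2:**
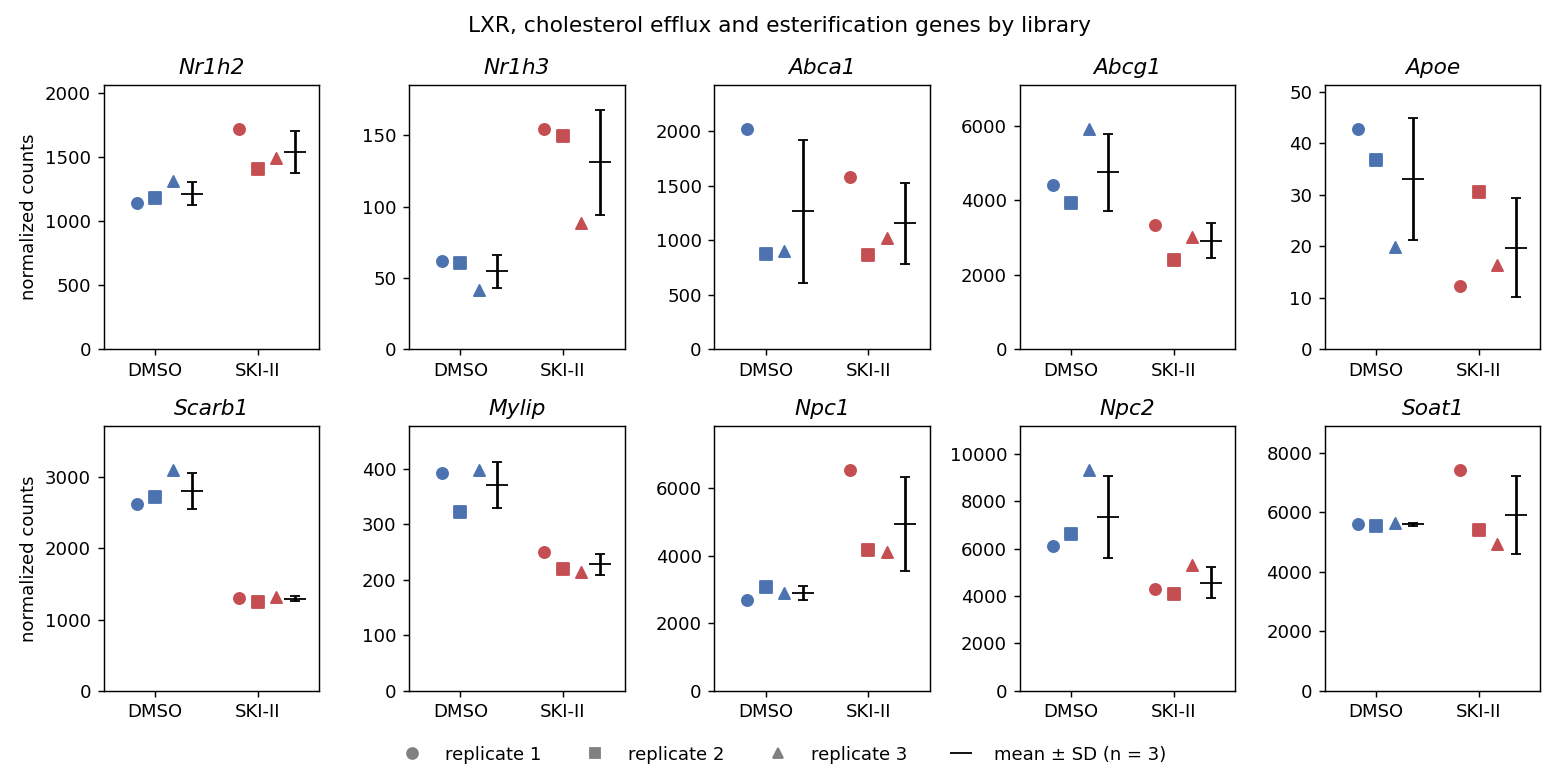
Normalized counts (y axis, from 0) of the 10 genes in the 3 DMSO (blue) and 3 SKI-II (red) libraries, with the marker shape giving the replicate number and bars the mean ± SD (n = 3). The groups are apart for 7 of the 10 genes, against 50.3% of all tested genes, and overlap for *Abca1*, *Apoe* and *Soat1*, and DMSO replicate 1 stands at 2020.3 for *Abca1* against 873 and 900.1 in the other DMSO libraries.

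The lysosomal pair moved in opposite directions. *Npc2* encodes the soluble protein that binds cholesterol in the lysosome and hands it to NPC1, the membrane protein that passes it on. *Npc1* (chromosome 18, 12189692 to 12236400, minus strand) had 2685, 3088 and 2904 normalized counts with DMSO and 6540.2, 4169 and 4127 with SKI-II. Each SKI-II library exceeded each DMSO library, and SKI-II replicate 1 stood above the other 2. The log2 fold change was 0.77 (SE 0.18, 95% interval 0.37 to 1.18, adjusted p = 0.00828 by edgeR), or 1.71-fold, and without SKI-II replicate 1 it was 0.51 (adjusted p = 0.0136). The exons of *Npc1* overlap those of *Rmc1* on the opposite strand over 511 bases, 4.52% of its exon length. *Rmc1* had 389 to 491 counts with DMSO and 696 to 779 with SKI-II, and with the strand setting of the counting not given, its part in the counts of *Npc1* was not tested.

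*Npc2* (chromosome 12, 84754562 to 84773152, minus strand) had 6106, 6617 and 9315 normalized counts with DMSO and 4288, 4100.2 and 5321 with SKI-II. No SKI-II library reached the DMSO libraries. The log2 fold change was -0.68 (SE 0.18, 95% interval -1.09 to -0.28, adjusted p = 0.0142 by edgeR), or 1.61-fold lower, and without SKI-II replicate 2 it was -0.61 with an adjusted p of 0.0653.

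The log2 ratio of *Npc1* to *Npc2* counts was -1.19, -1.10 and -1.68 with DMSO and 0.61, 0.02 and -0.37 with SKI-II. It differed by 1.41 between the group means, a 2.66-fold shift toward *Npc1*, with no overlap between the groups. The two-sided exact permutation test gave p = 0.1, again the smallest this design allows, and 0.2 adjusted over the 4 ratios.

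*Soat1* (chromosome 1, 156424525 to 156474331, minus strand) encodes the endoplasmic reticulum enzyme that esterifies cholesterol in macrophages. It had 5599, 5542 and 5646 normalized counts with DMSO and 7408, 5400 and 4923 with SKI-II. The DMSO libraries were nearly level, and the SKI-II libraries lay on both sides of them. The log2 fold change was 0.08 (SE 0.16, 95% interval -0.28 to 0.44, adjusted p = 0.732 by edgeR), and without SKI-II replicate 1 it was -0.12 (adjusted p = 0.47). Efflux set against esterification, as the log2 ratio of *Abca1* to *Soat1* counts, averaged -2.26 ± 0.69 with DMSO and -2.38 ± 0.22 with SKI-II (SD, n = 3), and the exact permutation p was 1.

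The *Soat1* promoter is shown because it held 2 antioxidant response elements, the letters bound by Nrf2 and related factors. It spans chr1:156474279-156474578 of GRCm38.p6 on the minus strand, from RefSeq. Capitals mark the elements, the first 166 bases before the start and the other 3 after it.
*Soat1*: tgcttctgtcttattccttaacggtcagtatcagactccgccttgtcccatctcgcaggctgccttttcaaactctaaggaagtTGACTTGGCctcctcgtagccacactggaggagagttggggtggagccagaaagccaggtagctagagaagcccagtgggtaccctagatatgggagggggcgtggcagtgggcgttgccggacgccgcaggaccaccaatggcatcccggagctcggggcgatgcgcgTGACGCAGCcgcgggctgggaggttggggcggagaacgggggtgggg
At least 1 such element was in 12.4% of all windows of this length.

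**Figure D3:**
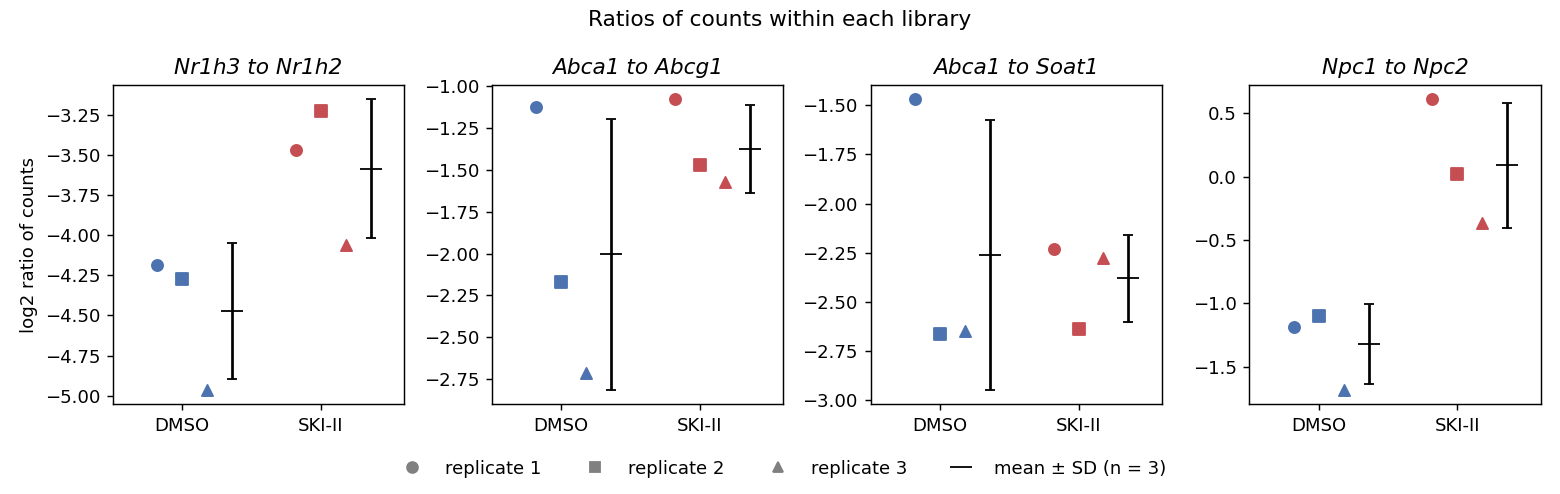
Log2 ratio of the counts of 2 genes within each library (y axis, a separate scale in each panel) for 4 pairs, in DMSO (blue) and SKI-II (red) libraries, with marker shapes for the replicate number and bars for the mean ± SD (n = 3). The groups are apart for *Nr1h3* to *Nr1h2* (difference 0.89) and *Npc1* to *Npc2* (difference 1.41) and overlap for *Abca1* to *Abcg1* and *Abca1* to *Soat1*.

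Of 13 tested genes otherwise known as LXR targets, 1 was higher, 6 were lower and 6 were not called, with a median log2 fold change of -0.56. The higher one was *Smpdl3a*, a secreted phosphodiesterase, which went from 701 ± 271 to 1467 ± 154 normalized counts (SD, n = 3; log2 fold change 1.06, adjusted p = 0.00547 by edgeR). Of the 6 lower genes, 4 encode enzymes of fatty acid synthesis or their regulator. *Scd1*, a stearoyl-CoA desaturase, went from 6938 ± 618 to 1908 ± 381 (log2 fold change -1.86, adjusted p = 3.5e-05), and its relative *Scd2* changed by -1.78. *Fasn*, the fatty acid synthase, changed by -1.14. *Srebf1*, whose product controls these synthesis genes, went from 4301 ± 325 to 2233 ± 249 (log2 fold change -0.95, adjusted p = 0.000418). *Lpl*, lipoprotein lipase, changed by -1.48 and *Cd5l*, a secreted macrophage protein, by -1.26, a value that became -0.71 without DMSO replicate 1 and missed the threshold without SKI-II replicate 1 (-1.20, adjusted p = 0.0677). Log2 fold changes of the 6 not called were 0.58 for *Mertk*, 0.23 for *Arl4c*, 0.17 for *Lpcat3*, -0.14 for *Rnf145*, -0.29 for *Pltp* and -0.56 for *Tgm2*. The other 6 of the 19 listed targets did not pass the filter, and *Abcg5* and *Abcg8*, which make a sterol exporter of gut and liver, were at 0 in every library.

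Among 12 tested genes for LXR partners and cofactors, 2 were lower and 10 were not called, with a median log2 fold change of -0.16. The edgeR test called 0 of them higher, as did DESeq2 and limma-voom, and 0 were higher at an unadjusted p below 0.05. The 2 lower genes were *Tbl1xr1* (-0.64, adjusted p = 0.011 by edgeR) and *Hdac3* (-0.35, adjusted p = 0.0365), both parts of the corepressor complex that holds LXR targets off. *Hdac3* missed the threshold with any library but DMSO replicate 3 left out (-0.38 to -0.32, adjusted p up to 0.141). *Rxrg*, a retinoid X receptor, was at 0 in every library. The retinoid X receptor genes *Rxra* and *Rxrb*, named after their values were seen, were expressed and not called. *Rxra* averaged 786 normalized counts with DMSO and 660 with SKI-II (-0.25, adjusted p = 0.133 by edgeR). *Rxrb* averaged 2219 and 1946 (-0.19, adjusted p = 0.474).

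Enzymes that make or remove the oxysterol ligands were sparse. *Ch25h*, the cholesterol 25-hydroxylase, had 3, 0 and 0 counts with DMSO and 2, 2 and 9 with SKI-II, below the filter, and *Cyp7b1* was at 0 throughout. *Cyp27a1*, the mitochondrial sterol 27-hydroxylase, rose from 306 ± 2.28 to 426 ± 16.9 normalized counts (SD, n = 3; log2 fold change 0.48, adjusted p = 0.0192 by edgeR). *Sult2b1*, a sulfotransferase that inactivates oxysterols, had a log2 fold change of 0.98 (adjusted p = 0.0288). The rise of *Cyp27a1* was not called without DMSO replicate 2 or SKI-II replicate 2 or 3 (0.45 to 0.48), nor that of *Sult2b1* with any library but SKI-II replicate 3 left out (0.87 to 1.04).

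Receptors that bring lipoproteins in were mostly lower, with 5 of 6 tested genes falling and 1 rising. The scavenger receptor gene *Msr1* went from 3520.2 to 3961 normalized counts with DMSO to 619 to 1346 with SKI-II (log2 fold change -2.11, adjusted p = 0.000277 by edgeR). *Olr1*, a receptor for oxidised LDL, had 18, 20 and 39 counts with DMSO and 0, 4 and 3 with SKI-II. *Cd36*, another scavenger receptor, was the one that rose, by 0.45 on the log2 scale (adjusted p = 0.0299), and it was not called without DMSO replicate 2 or 3 or SKI-II replicate 1 or 2 (0.33 to 0.45, adjusted p up to 0.168). *Vldlr* and *Marco* were at 0 in every library.

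Beside *Npc1* and *Npc2*, 12 genes of lysosomal release and sterol transport were tested, of which 3 rose, 2 fell and 7 were not called. *Osbpl2*, an oxysterol-binding lipid transfer protein, was at 774 to 1198 normalized counts with DMSO and 2647 to 2908 with SKI-II (log2 fold change 1.47, adjusted p = 0.000113 by edgeR). The START-domain sterol carriers split, with *Stard5* at 1.28 and *Stard4*, a target of SREBP2, at -1.74. *Stard3*, of the same kind and named after its values were seen, was not called (0.09, adjusted p = 0.577 by edgeR). The carriers of sterol from the cell membrane split too, with *Gramd1a* at -0.67 (adjusted p = 0.0115) and *Gramd1b*, named after its values were seen, at 0.95 (adjusted p = 0.000311). Among other efflux transporters, *Abca2* (log2 fold change -1.49) and *Abca7* (-0.77) fell and *Abca5* had 0.62 with an adjusted p of 0.0495 by edgeR, which missed the threshold with any library but DMSO replicate 3 left out (0.53 to 0.73). *Apoa1*, the main protein of HDL, was at 0 in every library.

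The esterifying enzymes differed from each other. *Soat2*, the relative of *Soat1* best known from gut and liver, had 481, 513 and 265 normalized counts with DMSO and 1562, 1568 and 1243 with SKI-II. It rose by 1.80 on the log2 scale (adjusted p = 0.000295 by edgeR), while the interval of *Soat1* ended at 0.44. *Acat2* was listed with these genes for its name but encodes a thiolase of early sterol synthesis, and it fell from 1006 ± 97.7 to 178 ± 25.7 normalized counts (SD, n = 3; adjusted p = 8.58e-06). The other 3 tested genes of ester synthesis and hydrolysis were not called.

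SREBP2 is the factor that switches on sterol synthesis when sterol in the endoplasmic reticulum is low. Of 12 genes that either control it or act in sterol synthesis, 9 were lower, with a median log2 fold change of -1.22. The other 3, *Insig2*, *Mbtps2* and *Scap*, were at 0.25, 0.15 and 0.04. They belong to the control of SREBP2, as do 3 of the lower genes, *Insig1*, *Mbtps1* (-0.35, adjusted p = 0.0421 by edgeR) and *Srebf2*, the gene of SREBP2 itself (-1.37, adjusted p = 8.14e-05). Apart from *Insig1*, these control genes were named after their values were seen. *Idi1*, an isomerase of isoprenoid synthesis, had -2.02, and *Insig1*, a sterol-regulated retention protein, -1.93. In this group 7 genes lay below -1. None was called higher by edgeR, DESeq2 or limma-voom, or at an unadjusted p below 0.05 (0 of 12). This group had 7 or 8 lower genes with a library left out, 7 without a filter and 8 with library size alone. The share of each list can be read against the 18.4% of all tested genes that were higher and the 19.7% that were lower.

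**Figure D4:**
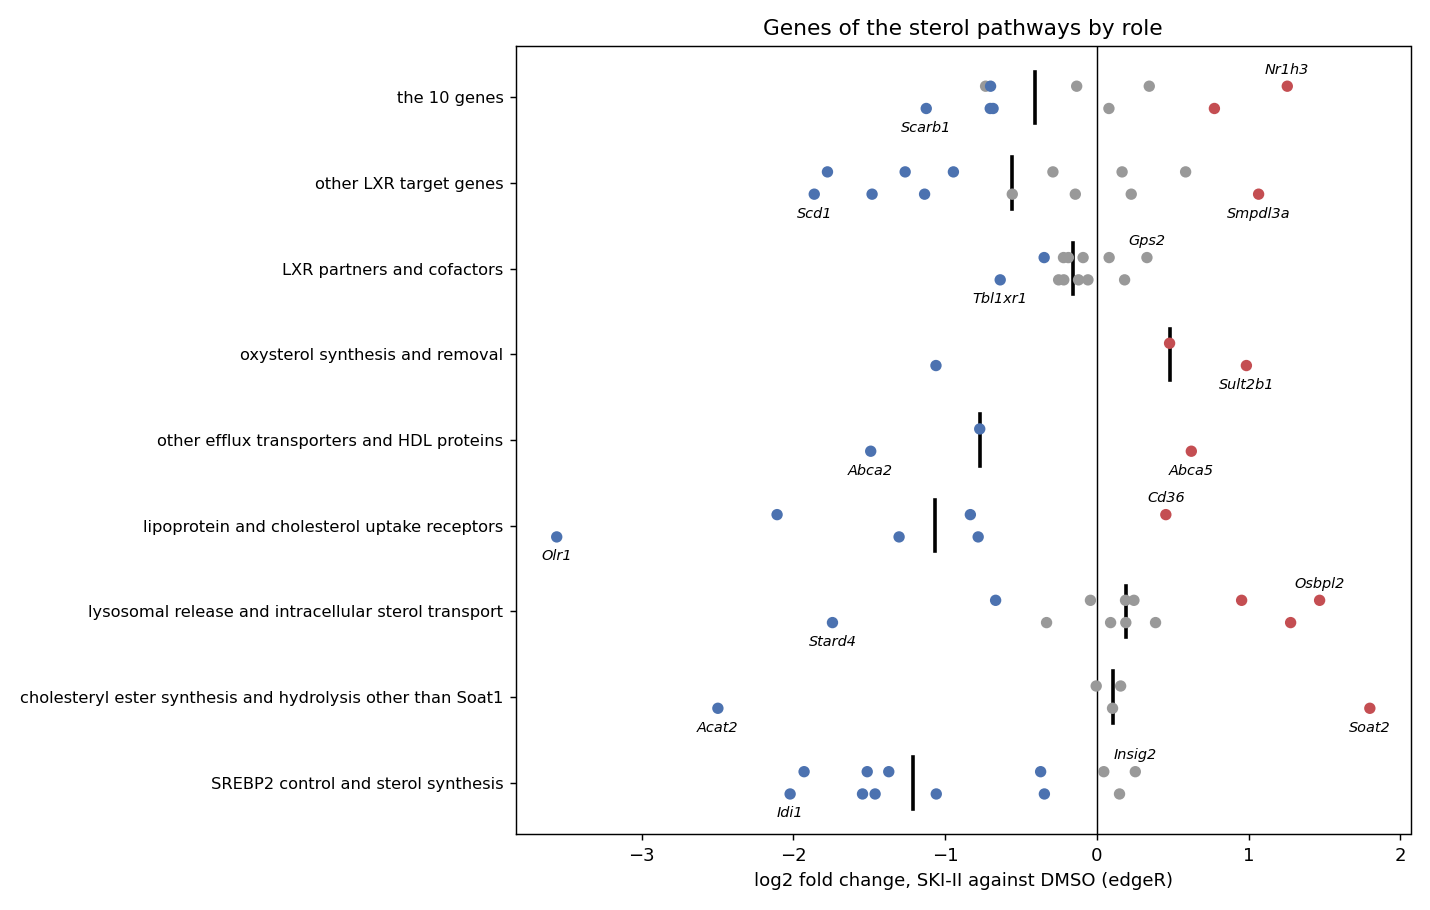
Log2 fold change between SKI-II and DMSO (x axis) for each tested gene of the 10 described and of 8 related lists (rows), with red for higher and blue for lower at an adjusted p below 0.05, grey for not called and a black bar for the median. The medians run from -1.22 for SREBP2 control and sterol synthesis to 0.48 for oxysterol synthesis and removal, with the 10 genes at -0.41.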

How the data were processed

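RNA-seq libraries of RAW264.7 cells were analysed, 3 with DMSO and 3 with SKI-II (4 μg/mL, 24 h), grouped by the sample labels. Per the submitters' processing notes, reads were processed with Trimmomatic 0.36, STAR 2.5.2b, featureCounts of Subread 1.5.2 and DESeq2. The file used here, as the authors deposited it, holds raw counts per Ensembl gene. Genome build, annotation release and strandedness were not given in the sources used here. GENCODE M21 (GRCm38) named 49056 of 49315 identifiers and gave positions and exon lengths. Promoters came from RefSeq on GRCm38.p6.

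Counts were tested with edgeR 4.0.16 in R 4.3.3 (quasi-likelihood F test, TMM scaling, filterByExpr defaults) with Benjamini-Hochberg adjustment over 12274 genes, which held 99.87% to 99.92% of the counts. Totals lay between 12495957 and 20050677 counts, and the common coefficient of variation was 17.5%. Normalized counts were scaled to 16042438 counts. Within-library ratios, with 0.5 added to each count, were compared by exact permutation tests in SciPy 1.17.1. Alternatives were DESeq2 1.42.0, limma-voom (limma 3.58.1), RLE scaling, library size alone, no filter, at least 10 counts in every library, adjusted p thresholds of 0.01 and 0.1, the replicate number as a block, the longest transcript in place of merged exons, and each library left out. The scripts were tested on simulated counts.

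The 10 genes and the lists, written by hand from general knowledge, were chosen with earlier results of these data known. All genes of the other LXR target and oxysterol lists could be named, and a few are not reported here. In each other list the rule took, among called genes, the 2 at each end of the log2 fold changes, and genes at 0 in a whole group. For *Abca1* and *Abcg1* it also took the 3 genes of most like pattern.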

Additional observations from a re-analysis of the deposited data

How the results depend on the processing

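Of 130 refits of the 10 genes, 119 kept the direction and the side of the threshold. *Nr1h2* passed with DESeq2 (0.35, adjusted p = 0.0401), RLE scaling (0.35, 0.049), library size alone (0.35, 0.0461) and at least 10 counts in every library (0.35, 0.042), and without DMSO replicate 3 (0.40), with a range of 0.25 to 0.41 over the libraries left out. *Abcg1* (-0.83 to -0.52) and *Npc2* (-0.82 to -0.48) lost the call without SKI-II replicate 2, at -0.58 and -0.61. *Abca1* changed direction without DMSO replicate 1 (0.36) and when SKI-II replicate 2 was left out (0.04), with a range of -0.43 to 0.36, and *Soat1* without SKI-II replicate 1 (-0.12 to 0.19). The log2 ratio of *Abca1* to *Soat1* turned to 0.28 and 0.01 without the same libraries as *Abca1* (range -0.32 to 0.28). *Rnf145* ranged from -0.33 to 0.0015, the latter without SKI-II replicate 3. The number of lower genes among the 10 was 2 without SKI-II replicate 2 (range 2 to 4) and 2 at an adjusted p below 0.01. Without a filter, called genes numbered 1 lower for LXR cofactors, 1 higher for oxysterol enzymes and 0 higher for other efflux transporters. With a library left out, these ranged from 1 to 2, 0 to 1 and 0 to 1, and higher uptake receptors from 0 to 1. *Abca5*, *Cd36*, *Cd5l*, *Cyp27a1*, *Hdac3* and *Sult2b1* each lost the call in at least 1 refit. *Tgm2* passed without a filter (-0.56, adjusted p = 0.00564) and in the fits lacking DMSO replicate 1 (-0.75) or SKI-II replicate 3 (-0.73), and fell short at -0.29 without DMSO replicate 3. In all these cases the cause was not tested.

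Whether the replicate numbers pair the libraries was not resolved with 3 libraries a group. Deviations of same-numbered libraries correlated at 0.28, -0.05 and 0.53, and those of differently numbered ones at -0.56 to 0.40. With the replicate block, *Nr1h2* passed (0.34, adjusted p = 0.0441 by edgeR), as did *Pltp* (-0.29, 0.0402) and *Tgm2* (-0.54). No call of the 10 genes was lost. Of all tested genes, 2765 were higher and 2819 lower with the block, against 2255 and 2413 without it. DMSO replicate 2 and SKI-II replicate 2 did not correlate best with each other. Few counts limit *Apoe* and *Nr1h3*, and the median log2 fold change of all genes lay between -0.0136 and 0.0154 in all refits.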

Other observations

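The tested genes whose pattern over the 6 libraries was closest to that of *Abca1*, by the distance between log2 normalized counts centred on the DMSO mean and among 9586 candidates, were *Trim30a* (distance 0.473), *Rgs2* (0.567) and *Irgm1* (0.579). For *Abcg1* they were *Slfn2* (0.298), *Cpd* (0.318) and *Pfkm* (0.325), with log2 fold changes of -0.75, -0.68 and -0.72. *Trim30a* and *Irgm1* are known as interferon-induced genes and *Pfkm* as a phosphofructokinase of glycolysis.

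Macrophage markers did not move together. Of 10, 3 were higher (among them *Fcgr1* by 2.17 on the log2 scale and *Cd14* by 1.41), 3 were lower (among them *Lyz2* at -1.26 and *Itgam* at -0.93) and 4 were not called by edgeR's quasi-likelihood test.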
